A study of Mus musculus with 36 samples.

Results

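The heat shock protein genes Hspb1, Hspb8, Hspa1a, Hspa1b, Hspa8, Hsp90aa1, Hsp90ab1, Dnajb1, Hspd1 and Hspe1 were followed in mouse liver. These 10 genes were chosen by name, with their levels in these mice known, because Hspb1 was far higher in the quercetin-fed mice (HF-Q) than in the mice killed at the start of the intervention (t=0). The difference between those 2 groups is therefore given as a description without a test, and so are all differences of Hspb1. Of the 41174 probes on the array 17 carry the name of a member, and 15 of these are among the 21781 probes that the authors kept in their processed table. They represent 9 of the 13042 named genes in that table. Hspa1b has no probe under its own name. The Hspa1a probe A_52_P52803 also lists the accession of Hspa1b, and since the pair of genes is nearly identical, the signal of any Hspa1a probe may come from both.

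Liver RNA of 36 adult male C57BL/6J mice (C57BL/6JOlaHsd in the study's methods) was hybridised, each mouse on its own array as Cy5-labelled cRNA against a Cy3-labelled reference pool of the same livers. All mice first ate a diet with 30% of its energy as fat for an adaptation phase, and 12 of them were killed at its end (t=0). The phase lasted 3 weeks by the sample labels, and the study's methods give a shorter time. The 12 mice of the control group (HF) stayed on that diet for 12 weeks more, and the 12 mice of the quercetin group (HF-Q) ate it with 0.33% (w/w) quercetin, a plant flavonoid, for the same time. Mice were fasted for some hours before they were killed. HF and HF-Q mice were 12 weeks older than t=0 mice, so that age, time on the diet and the day of killing cannot be told apart in any comparison with t=0.

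Heat shock proteins are chaperones, which bind unfolded proteins and help them to fold, to cross membranes or to be degraded. Their genes are in large part switched on by heat shock factor 1 (HSF1), which binds repeats of the 5-base unit nGAAn when unfolded proteins occupy the chaperones that otherwise hold it inactive. In the cytosol, Hspa8 and its inducible relatives Hspa1a and Hspa1b work with J-domain proteins such as Dnajb1 and hand client proteins on to Hsp90aa1 and Hsp90ab1, while the small heat shock proteins Hspb1 and Hspb8 hold unfolded proteins without using ATP. Hspd1 and its lid Hspe1 form the folding chamber of the mitochondrial matrix. The liver, which secretes much protein and runs daily cycles of feeding and body temperature, has high levels of the constitutive chaperones.

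Since the inducible members share HSF1 as a regulator, their promoters were searched for inverted pairs of that unit, TTCNNGAA and GAANNTTC, both of which read the same on either strand. RefSeq promoter windows on GRCm38.p6, from 250 bases before to 50 after a start, were at hand for 7 of the 10 genes. A window held TTCNNGAA in 8.52% and GAANNTTC in 7.86% of all 32851 promoters, and either of them in 15.1%. The 150 bases before the start are shown for Hspb1, which chose the group, for Hspa1a, which varied most between mice, and for Hspe1, whose window overlaps one of the Hspd1 windows by 285 bases on the other strand. Capitals mark the motifs, and a match is a description of the letters only.
Hspb1, chr5:135887769-135887918, + strand: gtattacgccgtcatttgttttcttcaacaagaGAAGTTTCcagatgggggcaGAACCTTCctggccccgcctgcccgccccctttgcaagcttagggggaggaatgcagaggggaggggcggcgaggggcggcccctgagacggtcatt
Hspa1a, chr17:34972157-34972306, - strand: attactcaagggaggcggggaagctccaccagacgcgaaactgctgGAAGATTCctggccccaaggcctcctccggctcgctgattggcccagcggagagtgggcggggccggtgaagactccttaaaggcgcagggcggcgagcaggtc
Hspe1, chr1:55087998-55088147, + strand: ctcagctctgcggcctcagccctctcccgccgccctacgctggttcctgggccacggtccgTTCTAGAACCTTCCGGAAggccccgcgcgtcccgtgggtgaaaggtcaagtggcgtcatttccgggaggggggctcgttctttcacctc
The Hspb1 promoter held GAANNTTC at 117 and at 97 bases before the start. Hspa1a and Hspa1b, whose windows differed at 4 of 300 bases, each held it once, at 104 bases before the start. In Hspe1 GAANNTTC overlapped a TTCNNGAA on either side, an unbroken run that 0.603% of all promoters matched over at least 3 units. Hspb8 held a motif only within the transcribed bases, and neither of the Dnajb1 windows held a motif. Hspa8, Hsp90aa1 and Hsp90ab1 were not searched.

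Levels are the authors' processed log2 values, which the scanner data show to be close to the log2 ratio of Cy5 over Cy3 plus the mean log2 Cy3 of the spot, so that a difference of 1 stands for a doubling of the signal with its background included. Levels of different probes are not comparable. The arrays lay on 9 slides with all 3 groups on each slide. One array stood apart in brightness: in HF-Q replicate 2, 96.7% of spots were well above background, against 56.4% to 67.4% on the other 35 arrays. Another, HF replicate 5, held RNA of the pancreas, with a mean log2 level of 18.01 over 5 pancreas markers against 8.13 to 8.94 elsewhere. Its levels of Hspb1 (12.31), Hspa1a (10.49), Hspa8 (16.56) and Hsp90aa1 (15.80) were within the range of the other HF mice. The 7 hepatocyte markers measured had mean log2 levels of 16.15 to 16.87 on all arrays.

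Most cytosolic heat shock proteins were higher in HF mice than in t=0 mice, and the mitochondrial ones and Hspb8 did not pass the test. A limma fit over all 21781 probes with Benjamini-Hochberg adjustment called 5 of the 8 members tested, all higher in HF, namely Hspa1a, Hsp90aa1, Hspa8, Dnajb1 and Hsp90ab1. In the same fit 21.3% of all probes were called, 10.9% as higher in HF. The median log2 difference over the 8 members was 0.33, and over all probes it was -0.0047. The t=0 mice of this comparison are those whose low Hspb1 chose the group, so that its direction is not independent of the choice. In bulk liver RNA, fewer cells of a type and less RNA per cell cannot be told apart.

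**Figure D1:**
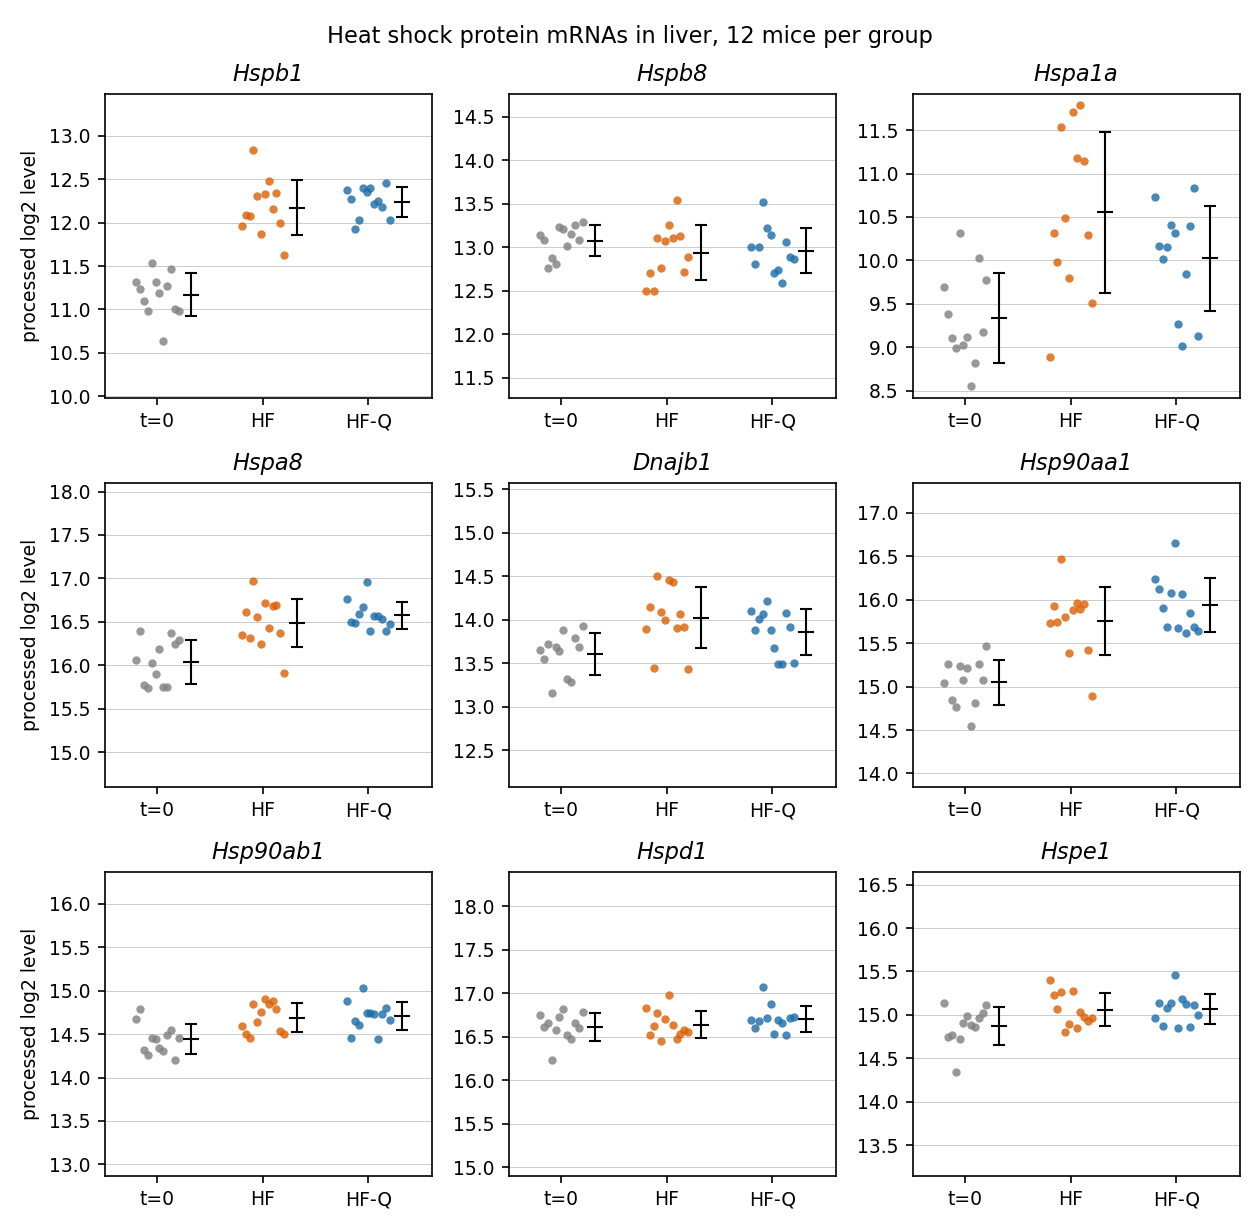
Processed log2 level (vertical axis, each panel 3.5 units high) of the brightest probe of each heat shock protein gene in t=0, HF and HF-Q mice. Points are single mice, 12 per group, and bars give mean ± SD. The 12 t=0 mice lie below all HF and HF-Q mice for Hspb1, and Hspa1a has the widest scatter.

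Hspb1, the small heat shock protein also known as HSP25, was measured by probe A_52_P404533 (chromosome 5, 136173684 to 136173871, mouse build mm8 in the array annotation). In t=0 mice its log2 level was 10.64 at the lowest, 11.21 at the median and 11.54 at the highest. The values were 11.62, 12.12 and 12.83 in HF mice and 11.93, 12.26 and 12.46 in HF-Q mice. The t=0 mice thus lay below all mice of both later groups, which overlapped one another. Means were 11.17 ± 0.25 (SD, n = 12) at t=0, 12.17 ± 0.32 in HF and 12.24 ± 0.17 in HF-Q. Hspb1 was therefore 2.00-fold higher in HF and 2.10-fold higher in HF-Q than at t=0. Within slides, HF exceeded t=0 on 9 of 9 slides, by 0.52 to 1.84 on the log2 scale, and HF-Q exceeded t=0 on 9 of 9 slides, by 0.77 to 1.39. A second probe under the name Hspb1, A_52_P88910, is annotated on chromosome 13 and was well above background on 0 of 36 arrays.

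Hspb8, a small heat shock protein that works with Bag3 in selective autophagy, was not called. Its log2 levels ran from 12.77 to 13.29 with a median of 13.12 at t=0, from 12.49 to 13.55 with a median of 12.98 in HF, and from 12.59 to 13.52 with a median of 12.94 in HF-Q. All 3 groups overlapped. The HF level minus the t=0 level was -0.14 (95% confidence interval -0.34 to 0.066, adjusted p = 0.325 in limma).

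Hspa1a, the inducible cytosolic Hsp70, had the largest difference between HF and t=0 among the members tested. The log2 level at its brightest probe, A_52_P82741, was 8.55, 9.15 and 10.31 (lowest, median and highest) at t=0, 8.89, 10.40 and 11.79 in HF, and 9.02, 10.16 and 10.83 in HF-Q. The groups overlapped, with 7 of 12 HF mice above every t=0 mouse. HF exceeded t=0 by 1.22 (standard error 0.28, 95% confidence interval 0.65 to 1.79, adjusted p = 0.00282 in limma), which is 2.33-fold. Probes A_51_P117952 and A_52_P52803, the latter shared with Hspa1b, gave differences of 1.31 and 1.00 and were called too. The within-slide difference of the brightest probe ran from 0.093 to 2.63, higher in HF on 9 of 9 slides. A further probe, A_52_P304902, is not in the processed table. It was well above background on 3 of 12 t=0, 9 of 12 HF and 9 of 12 HF-Q arrays.

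Hspa8, the constitutive Hsp70, was measured by A_51_P170371 as its brightest probe. Its log2 levels were 15.73, 16.04 and 16.39 at t=0, 15.91, 16.50 and 16.97 in HF, and 16.39, 16.55 and 16.96 in HF-Q (lowest, median and highest). HF overlapped t=0, while all but the lowest HF-Q mouse exceeded every t=0 mouse. HF exceeded t=0 by 0.45 (standard error 0.10, adjusted p = 0.00289 in limma), or 1.36-fold. Its second probe, A_52_P12877, gave 0.20 and was not called (95% confidence interval -0.025 to 0.42, adjusted p = 0.19 in limma), so that the probes of Hspa8 did not give the same call.

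Dnajb1 (HSP40), which delivers clients to Hsp70 and starts its ATP cycle, rose with both of its probes. The brighter one, A_51_P153486, had log2 levels of 13.15, 13.66 and 13.93 at t=0, 13.44, 14.03 and 14.51 in HF, and 13.48, 13.90 and 14.22 in HF-Q. The groups overlapped, and 10 of 12 HF mice were above the t=0 median. HF exceeded t=0 by 0.42 at this probe (adjusted p = 0.0108 in limma) and by 0.40 at A_52_P171663 (adjusted p = 0.00697).

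Both cytosolic Hsp90 genes, the inducible Hsp90aa1 and the constitutive Hsp90ab1, were higher in HF. Hsp90aa1 (A_51_P290231) had log2 levels of 14.55, 15.07 and 15.47 at t=0, 14.89, 15.84 and 16.46 in HF, and 15.62, 15.87 and 16.65 in HF-Q. Every HF-Q mouse lay above every t=0 mouse, and 9 of 12 HF mice did so. HF exceeded t=0 by 0.70 (standard error 0.13, 95% confidence interval 0.45 to 0.96, adjusted p = 0.000288 in limma), or 1.63-fold. Hsp90ab1 (A_51_P485043) had log2 levels of 14.21, 14.45 and 14.79 at t=0, 14.45, 14.69 and 14.91 in HF, and 14.44, 14.73 and 15.03 in HF-Q. Here HF exceeded t=0 by 0.25 (95% confidence interval 0.11 to 0.39, adjusted p = 0.0118 in limma), or 1.19-fold, with wide overlap. That call was lost with values taken from the scanner intensities by normexp and loess (difference 0.18, adjusted p = 0.112), and the second probe, A_52_P257204, gave 0.090 (adjusted p = 0.369). The difference in response between the Hsp90 genes was not tested.

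The mitochondrial pair was not called. Hspd1 (HSP60, A_51_P282706) had log2 levels of 16.23, 16.63 and 16.82 at t=0, 16.46, 16.60 and 16.98 in HF, and 16.52, 16.69 and 17.07 in HF-Q. HF and t=0 overlapped throughout, with a difference of 0.022 (95% confidence interval -0.11 to 0.16, adjusted p = 0.841 in limma), so that a rise above 1.11-fold lies outside the interval. A second Hspd1 probe, A_52_P1172972, gave -0.20 (adjusted p = 0.0835 in limma). Hspe1 (HSP10, A_51_P436368) had log2 levels of 14.35, 14.90 and 15.14 at t=0, 14.81, 15.00 and 15.40 in HF, and 14.85, 15.10 and 15.45 in HF-Q. Its HF minus t=0 difference was 0.19 (95% confidence interval 0.022 to 0.35, adjusted p = 0.0954 in limma).

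Some features of the samples moved along with HF against t=0, and their part in these differences was not tested. Of 5 bile duct markers 3 were called higher in HF (Krt7, Krt19 and Sox9, by 0.29, 0.42 and 0.64 on the log2 scale), and the mean level of the 5 ran from 8.86 to 9.62 at t=0, 9.25 to 9.95 in HF and 9.02 to 9.47 in HF-Q. Of 6 Kupffer cell and leukocyte markers limma called 0 (3 at an unadjusted p under 0.05), with mean levels of 10.38 to 12.36 at t=0 and 11.13 to 12.25 in HF. Acta2, a smooth muscle and stellate cell marker, was higher by 0.29 (mean of 6 such markers 9.81 to 10.06 at t=0, 9.50 to 12.10 in HF and 9.67 to 10.48 in HF-Q). Hba-a1 of red cells was higher by 0.93, Pecam1 of endothelium fell by 0.34, and Cps1 of hepatocytes fell by 0.32. Each was the single call of its list, out of 6 stellate and smooth muscle, 2 erythroid, 5 endothelial and 7 hepatocyte markers. The median log2 differences of these lists were 0.20, 0.40, 0.075 and -0.14. The endothelial median was thus opposite in sign to Pecam1. Without HF replicate 5, the same number of members, 5 of 8, was called. Of 10 circadian clock genes measured, limma called 1, lower in HF, and 5 had an unadjusted p under 0.05. Their median log2 difference was -0.23, and the mean level of Arntl was 8.17 at t=0 and 8.78 in HF. When each array's Arntl mRNA level, a readout of the circadian clock, entered the fit, 6 of 8 members were called, Hspe1 being the one added (difference 0.25, adjusted p = 0.0419 in limma).

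**Figure D2:**
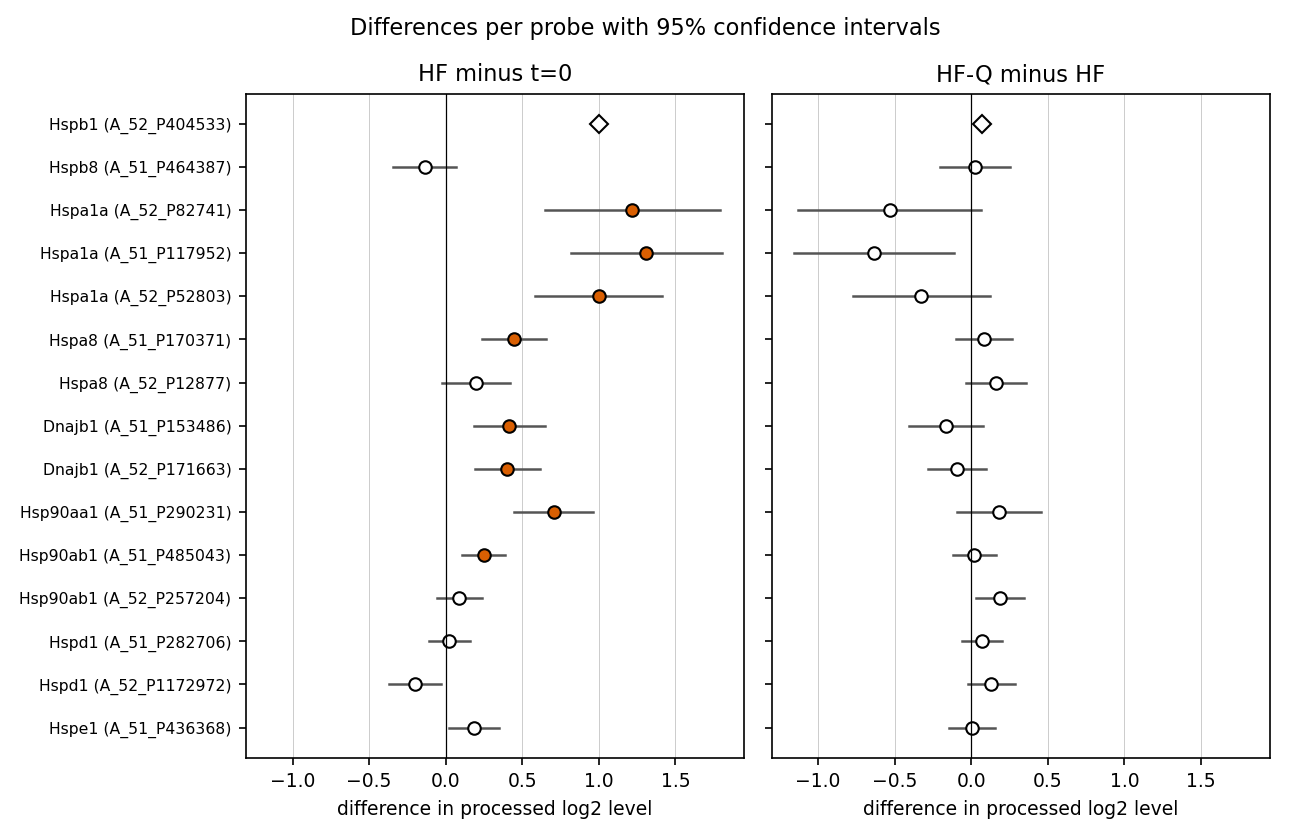
Difference in processed log2 level (horizontal axes) for each probe (vertical axis), HF minus t=0 on the left and HF-Q minus HF on the right, with 95% confidence intervals. Filled circles have an adjusted p under 0.05, open circles do not, and diamonds mark Hspb1, shown without a test. On the left 8 of 14 tested probes are filled, and on the right 0 of 14.

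No member passed the test between quercetin-fed and control mice. In HF-Q against HF limma called 0 of the 8 members tested and 0 at an unadjusted p under 0.05, while of all probes 2.36% were called and 15.4% had an unadjusted p under 0.05. The methods' t-test called 0 of them as well. Log2 differences of HF-Q minus HF ran from -0.53 to 0.18 with a median of 0.021, against 0.013 over all probes. The difference was 0.086 for Hspa8 (95% confidence interval -0.097 to 0.27), 0.019 for Hsp90ab1 (-0.12 to 0.16), 0.069 for Hspd1 (-0.062 to 0.20) and 0.0071 for Hspe1 (-0.14 to 0.16). For Hspb8 it was 0.023 (-0.20 to 0.25), for Dnajb1 -0.17 (-0.41 to 0.075) and for Hsp90aa1 0.18 (-0.095 to 0.45). Hspb1 differed by 0.068, with 9 of 12 HF-Q mice above the HF median.

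Hspa1a had the widest interval. Its HF-Q level minus its HF level was -0.53 (95% confidence interval -1.13 to 0.066, adjusted p = 0.382 in limma), and 3 of 12 HF-Q mice were above the HF median. Probe A_51_P117952 gave -0.64 and the probe shared with Hspa1b -0.33. The first of these had an unadjusted p of 0.0185 and an adjusted p of 0.209 in limma. With 14 probes tested, limma called 0, and 2 had an unadjusted p under 0.05. The other was A_52_P257204 of Hsp90ab1, with a log2 difference of 0.19 (unadjusted p = 0.02, adjusted p = 0.218 in limma). Without HF-Q replicate 2 the Hspa1a difference was -0.54 and again 0 members were called. The clock genes differed in this comparison, with 7 of 10 called, among them Ciart (1.03), Arntl (mean level 7.78 in HF-Q and 8.78 in HF), Dbp (0.92) and Tef (0.63), and with Arntl as a covariate 0 members were called.

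In HF-Q against t=0, the contrast that chose the group, 8 of the 9 measured members were higher in HF-Q at their brightest probes. The groups did not overlap for Hspb1 (1.07) and Hsp90aa1 (0.88). Of all probes 11.9% were called in this contrast, and groups did not overlap for 0.193%. The other log2 differences were 0.69 for Hspa1a, 0.53 for Hspa8, 0.27 for Hsp90ab1, 0.25 for Dnajb1, 0.19 for Hspe1, 0.091 for Hspd1 and -0.12 for Hspb8. The second Hspd1 probe, A_52_P1172972, had the opposite sign (-0.067), and the brightest was higher in HF-Q on 4 of 9 slides. Of 7 hepatocyte markers 3 were called lower in HF-Q, Cps1 (-0.45), Ass1 (-0.36) and Ttr (-0.33), with a median over the 7 of -0.23 and mean levels of 16.15 to 16.74 in HF-Q and 16.21 to 16.87 at t=0. Both measured erythroid markers were called, Hba-a1 higher (1.21) and Alas2 lower (-0.26), with mean levels of 13.91 to 14.59 in HF-Q and 13.37 to 14.10 at t=0. The part of these in the members' differences was not tested. This contrast shares its t=0 mice with HF against t=0. In the latter, groups did not overlap for 1 of 9 members, Hspb1, and for 0.565% of all probes.

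Other chaperone genes were taken from 9 lists with 92 genes that are not members, of which 87 were measured. In HF against t=0, 29 of them were called, 27 higher and 2 lower, where 21.3% of all probes were called and 10.9% as higher. The median log2 difference of the 87 genes was 0.10. In HF-Q against HF, 3 of the 87 were called, 1 higher and 2 lower, with a median of -0.010, where 2.36% of all probes were called. Of the 87 genes 10 had an unadjusted p under 0.05 in limma, against 15.4% of all probes. Of 16 genes known as HSF1 targets, 12 were called higher in HF than at t=0 and 0 lower, beside the 10.9% of all probes. The largest were Bag3 (0.69), a co-chaperone of Hsp70 and partner of Hspb8, Serpinh1 (0.61), the collagen chaperone, Hspa4l (0.48) and Hsph1 (0.47), both exchange factors of the Hsp110 family. Hsf1 itself, named after its value was seen, had a difference of -0.037 (adjusted p = 0.516 in limma), and 0 of 4 heat shock factors and their binding proteins were called by limma, with 1 at an unadjusted p under 0.05.

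The counts by family in HF against t=0 follow, beside the 10.9% of all probes called higher and 21.3% called in either direction, and differences between families were not tested. Of 7 Hsp70 and Hsp110 paralogues 5 were higher, Hspa13 (0.39) and Hspa2 (0.35) among them besides those named. Of 25 J-domain co-chaperones 7 were higher, the largest being Dnajc12 (0.59), Dnajb11 (0.50), Dnaja1 (0.35) and Dnaja4 (0.30). Of 21 co-chaperones of Hsp90 and Hsp70, 8 were higher, including Cacybp (0.46) and Chordc1 (0.41). Fkbp5, an Hsp90 co-chaperone whose gene responds to glucocorticoids, fell by 1.17 on the log2 scale instead (mean 7.91 in HF against 9.08 at t=0, adjusted p = 0.00045 in limma). The endoplasmic reticulum counterparts, which answer to the unfolded protein response, were higher in 5 of 8 cases. Hspa5 (BiP) was higher by 0.79, Hyou1 by 0.73, Hsp90b1 (GRP94) by 0.57 and Dnajb11 by 0.50.

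The remaining lists held at most 1 call each in that comparison. Of 8 subunits of the cytosolic chaperonin CCT, Cct5 was higher (0.21). Of 6 small heat shock proteins, Cryab was higher (0.29). Of 10 mitochondrial chaperones and proteases, Afg3l2 was lower (-0.14), as the single call. For the cold-inducible RNA-binding proteins Cirbp and Rbm3, whose mRNAs rise when body temperature falls, limma called 0 of 2, and 0 had an unadjusted p under 0.05.

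The 3 calls of HF-Q against HF among the 87 genes, beside 2.36% of all probes called, were Fkbp5, Hspbap1 and Clpx. Fkbp5 was higher in HF-Q by 0.77 (adjusted p = 0.04 in limma), with 11 of 12 HF-Q mice above the HF median. Hspbap1, a protein that binds Hspb1, fell by 0.32, and Clpx, the unfolding subunit of a mitochondrial protease, fell by 0.55. For both, 0 of 12 HF-Q mice were above the HF median.

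**Figure D3:**
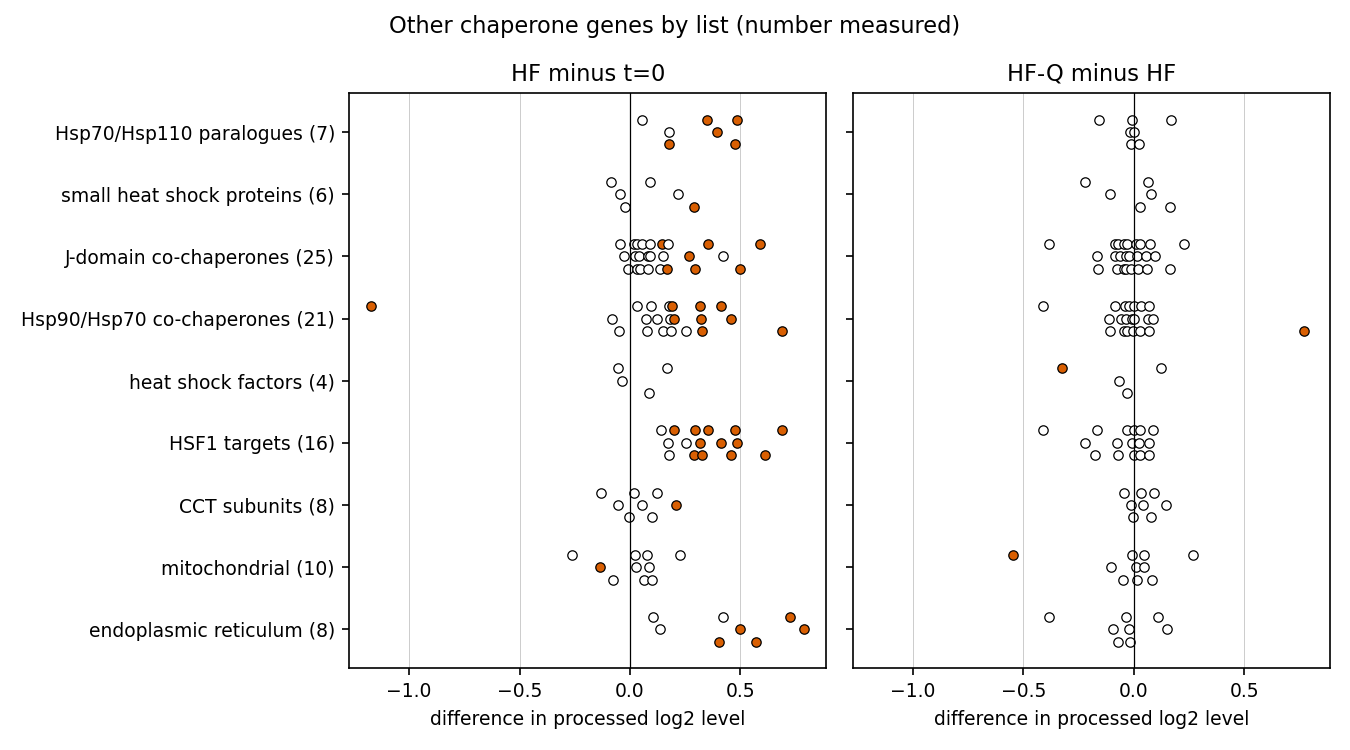
Difference in processed log2 level (horizontal axes) of other chaperone genes, by list (vertical axis, with the number of genes measured), HF minus t=0 on the left and HF-Q minus HF on the right. Each circle is a gene, filled where its adjusted p was under 0.05, and a gene may stand in several lists. On the left, 12 of 16 HSF1 targets are filled, all to the right of 0, and on the right 3 genes are filled, Fkbp5, Hspbap1 and Clpx.

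Among the members Hspa1a varied most between mice of the same group. The SD within groups of the Hspa1a log2 level was 0.70, against a median of 0.18 over all probes, and higher than that of 99.2% of them. Among HF mice the highest Hspa1a signal was 7.46-fold the lowest at the brightest probe. It was 4.59-fold the lowest at A_51_P117952 and 4.23-fold at A_52_P52803. Hsp90aa1 had an SD of 0.32 (percentile 92.6), Dnajb1 of 0.29 (89.2), Hspb1 of 0.25 (83.1) and Hspa8 of 0.24 (79.1). At its brightest probe Hspd1 was steadier than most probes, with an SD of 0.16 (32.8). Its second probe, A_52_P1172972, was not, with an SD of 0.21 (68.7). Hspe1 and Hsp90ab1 stood at percentiles 59.9 and 42.6, and the second Hsp90ab1 probe, A_52_P257204, at 52.5.

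These deviations correlated between members, to unequal degrees. With each level taken as the deviation from its group mean, Pearson's r over the 36 mice was above 0 for 36 of 36 pairs of the 9 genes, with a median of 0.47, and 23 pairs had an adjusted p under 0.05 (100000 permutations within groups, 36 pairs). With slide differences removed r was above 0 for 35 of 36 pairs, with a median of 0.44, and Hsp90ab1 with Hspe1 turned from 0.083 to -0.100. The points share the array, so that array quality enters both sides of a pair. Pairs of other genes were not counted, so that these counts have no share over all genes beside them. Ranked by r with Hspb1 among the 13042 named genes, Hsp90aa1, Hspa1a, Hspa8, Hsp90ab1 and Dnajb1 stood at 2, 5, 7, 11 and 15. Hspb8, Hspe1 and Hspd1 stood at 1546, 1787 and 2221. The largest r was that of Hsp90aa1 and Hspa8, 0.86 (Spearman's rho 0.78, both p = 1e-05, the smallest these permutations can give, adjusted p = 0.00036 and 0.00018). Without the 2 mice farthest from the median of Hsp90aa1 it was 0.80, with slide differences removed 0.84, and within t=0, HF and HF-Q mice it was 0.85, 0.92 and 0.83.

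Dnajb1 and Hspa1a followed with r = 0.67 (rho 0.70, permutation p = 4e-05 and 1e-05, adjusted p = 0.0006 and 0.00018, 0.63 without the 2 mice farthest in Dnajb1). Hspb1 correlated with Hsp90aa1 at r = 0.67 (rho 0.58, permutation p = 5e-05 and 0.00046, adjusted p = 0.0006 and 0.00151, 0.62 without the 2 farthest in Hsp90aa1). Within groups that r was 0.54 at t=0, 0.91 in HF and 0.30 in HF-Q, a difference that was not tested. Hspd1 and Hspe1, whose starts lie side by side on chromosome 1, correlated at r = 0.66 (rho 0.58, permutation p = 9e-05 and 0.00041, adjusted p = 0.0006 and 0.00148, 0.64 without the 2 farthest in Hspd1). With slide differences removed these 3 values were 0.64, 0.63 and 0.74.

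Over the 14 pairs of Hspd1 or Hspe1 with a cytosolic gene r ran from 0.063 to 0.47 with a median of 0.24, and 3 had an adjusted p under 0.05. Over the 21 pairs of cytosolic genes it ran from 0.16 to 0.86 with a median of 0.55, and 19 did. The difference between these sets of pairs was not tested.

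**Figure D4:**
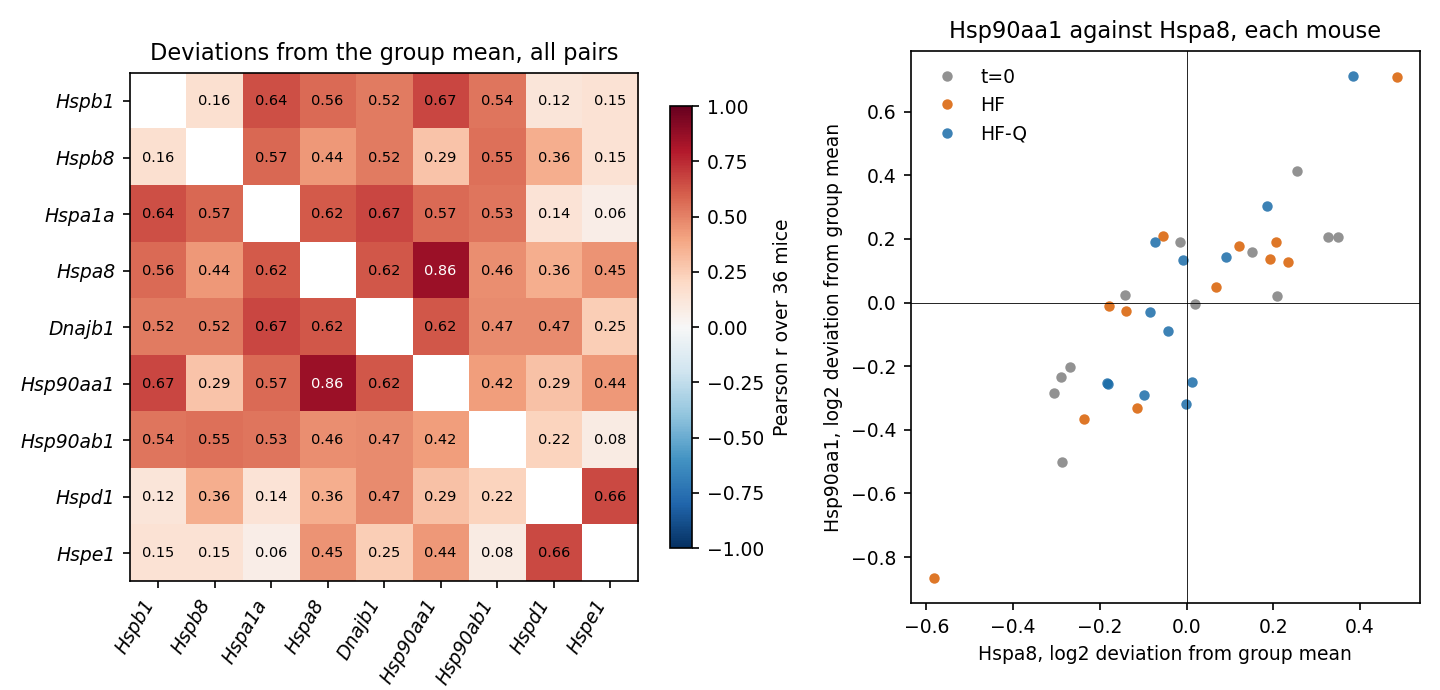
On the left, Pearson's r between the deviations of the log2 levels of heat shock protein genes from their group means over 36 mice, for all 36 pairs. On the right, these deviations for Hsp90aa1 (vertical axis) against Hspa8 (horizontal axis) on the log2 scale, 1 point per mouse. Hsp90aa1 and Hspa8 correlate at 0.86. Hspd1 and Hspe1 correlate with one another at 0.66 and with the other genes at 0.063 to 0.47.

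Among all 13042 named genes, those outside the group that were most like Hspb1 in their deviations from the group means over 36 arrays were Hsph1 (r = 0.73), Stip1 (0.66), which links Hsp70 to Hsp90, P4ha1 (0.65), a collagen prolyl hydroxylase, Chordc1 (0.57) and Hspa4l (0.56). For the probe shared by Hspa1a and Hspa1b they were Hsph1 (0.74), Dnajb4 (0.69), Polr3d (0.68), Bag3 (0.67) and Cybc1 (0.66). The last of these fell to 0.48 with the scanner values. For Hsp90aa1 they were Chordc1 (0.87), Ahsa1 (0.86), the activator of the Hsp90 ATPase, Dnaja1 (0.84), Hsph1 (0.83) and Hspa4l (0.75). Of these 15 places, 12 were held by genes of the chaperone lists, which hold 87 of the 13042 named genes. Hsph1, Chordc1 and Hspa4l held several places each, so that the places are not separate genes. The r values are descriptions, since the genes were picked as the highest of all.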

How the data were processed

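Scans were quantified with Agilent Feature Extraction by the authors (version 10.5.1.1 in the submitters' processing notes, another version in the paper), and the deposited scanner files hold the intensity of each spot and its background per channel, flags, and a log10 ratio of Cy5 over Cy3. In the processed table the authors give log2 values of Cy5 normalized against Cy3 for 23256 spots, those expressed by their rule of a signal over 2 times background. The table was joined to the scanner files by spot number. Its values differed from log2 Cy5 over Cy3 plus the mean log2 Cy3 by a median of 0.0199, and all column medians were 8.96. The normalization itself is described in a reference not used here, and the signals include their background, so that differences of dim probes are compressed.

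Spots of a probe were averaged, and a gene took its brightest probe. Gene names came from accessions matched to RefSeq for 24375 of 41174 probes, from the file's own name for 8727, and 8072 had none. Groups were compared pairwise with moderated linear models in limma (two-sided tests, p-values of all probes adjusted by Benjamini-Hochberg, called under 0.05), using the 24 arrays of the groups compared. The members, the gene lists and the tests were chosen with earlier results of these data known. Genes named outside the members are those of a list with an adjusted p under 0.05, at most the 4 with the largest difference per list and comparison, and the 5 genes most correlated with Hspb1, Hspa1b (by its shared probe) and Hsp90aa1. Of the markers and clock genes, only called genes were named, and correlations were planned as a description. Their permutation p-values, from mice permuted within groups, were added after seeing the data.

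Alternatives used the scanner intensities (normexp with offset 50 and loess, with and without the filter), the Agilent log ratio, a stricter filter, centring, quantile normalization, slide, array position or replicate number as terms, array weights, all 36 arrays and the methods' t-test. The fit was also run on simulated data in which probes vary independently. Those data lack the correlations between genes seen here, so that the run does not cover them. The number of arrays limits the precision. Used were R 4.3.3, limma 3.58.1, statmod 1.5.0, Python 3.11.15, NumPy 2.4.6 and matplotlib 3.10.9. Where on their transcripts the probes lie was not analysed here.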

Additional observations from a re-analysis of the deposited data

How the results depend on the processing

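In HF against t=0, where 5 members were called, 15 other settings called 4 to 6, and over these and the fits without 1 array the log2 difference of Hspa1a ran from 1.11 to 1.43, that of Hsp90aa1 from 0.63 to 0.78 and that of Hspb1 from 0.92 to 1.05. Hsp90ab1 lost its call with 4 settings, with adjusted p of 0.112 (loess), 0.127 (Agilent log ratio), 0.0942 (quantile) and 0.17 (loess without a filter). The small difference of Hspd1 turned to -0.060 with loess, with and without the filter, -0.050 with the Agilent log ratio, -0.045 with quantile normalization and -0.024 with array weights. Leaving out each array in turn called 5 members each time and 3988 to 5235 probes, with Hspd1 at -0.013 to 0.040. In HF-Q against HF, 0 members were called under all 39 other settings. The 513 probes called there became 210 with slide as a fixed block, 804 with array weights and 1 with Arntl as a covariate, the cause of which was not tested, and 358 to 614 without 1 array. With Arntl as a covariate Hspb8 turned to -0.054, Hspd1 to -0.055 and Hspe1 to -0.041, and with array weights Hspb8 turned to -0.00026. Leaving out 1 array gave -0.028 to 0.038 for Hspe1, -0.028 to 0.078 for Hspb8 and -0.010 to 0.043 for Hsp90ab1. Leave-one-out, the fit without HF replicate 5 and the Arntl covariate were chosen after seeing the data. Replicate numbers were not used as pairs in the main fits. Deviations of same-numbered HF-Q and HF mice correlated at a median of -0.0097, with 3 of 12 pairs above 0.1, and those of HF and t=0 mice at 0.061, with 4 of 12. Differently numbered mice were not compared, so that these values cannot exclude pairing. With the replicate block 5 members and 4636 probes were called in HF against t=0, and 0 members and 360 probes in HF-Q against HF. The median r between members was 0.49 with the scanner values, and 0.47 and 0.48 without HF-Q replicate 2 and HF replicate 5.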
